A study of Homo sapiens with 6 samples.

Results

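The TGF-beta and BMP pathway was followed through 41 genes, listed by name, in xenograft tumors that did or did not carry a gene fusion. They are the ligands of the TGF-beta family, their receptors, the SMAD proteins that relay the signal, the secreted proteins that hold ligands back, and a few direct targets. Of the 41, 40 had a probe set that names them alone, out of 18132 such genes on the array. BMPR1A, a type I BMP receptor, was not analysed here. Where a gene had several probe sets, that with the highest mean over the 6 tumors stood for it, and the others were used to see whether they moved alike.

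The fusion tumors (labelled TD) grew from CRL-5889 cells transfected with the TRA2B-DNAH5 fusion, and the vector tumors (labelled ctrl) from CRL-5889 cells transfected with the vector. CRL-5889 is an established human line of lung squamous carcinoma. Both kinds of cells were grown in nude mice, and tumors were taken at 4 weeks, 3 per group, with 1 Affymetrix array per tumor. The labels do not say whether the transfected cells were clones or pools, nor which mouse carried each tumor, so differences between the 2 cell populations and the effect of the fusion cannot be told apart. The p values measure the spread between these tumors. In such bulk tissue, fewer cells of a type and less RNA per cell cannot be told apart, and the human tumor cells' RNA was measured together with any from the host. The probe sets name human genes, and how well each binds mouse RNA was not tested. Values of cell type markers may thus come from the tumor cells or the mouse host, which cannot be told apart.

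Ligands of this family are secreted, and some are held in latent form or bound by antagonists outside the cell. The ligands signal through pairs of type I and type II receptor kinases. TGF-beta and activin receptors phosphorylate SMAD2 and SMAD3, BMP receptors phosphorylate SMAD1, SMAD5 and SMAD9, and both sets act in the nucleus together with SMAD4. The signal induces its own inhibitors, among them SMAD6, SMAD7 and SKIL. In epithelial tumors TGF-beta is known both for restraining growth and for promoting invasion and a mesenchymal state.

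All values below are log2 probe set values as deposited, and differences are fusion minus vector on that scale. Array medians lay between 6.27 and 6.39, and Pearson's r between arrays, across all probe sets, was 0.989 to 0.997. Vector tumor 1 stood apart on the first principal component (score 50.6, against -12.9 to -2.2 in the other 5 tumors, 45.7% of the variance). Of 14 squamous markers, 11 had a probe set. DSG3, DSC3, KRT13, SPRR1B and TRIM29 were below the level of 4.94 used as a filter on dim probe sets. KRT5 averaged 5.06 in fusion and 5.19 in vector tumors, and KRT14 averaged 5.71 in fusion and 5.70 in vector tumors. Apart from SOX2 (8.82 in fusion and 9.65 in vector tumors), the markers of the labelled squamous type thus lay below or close above the filter.

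No gene of the pathway passed the threshold of adjusted p 0.05. Of the 40 genes, 34 were above the filter and were tested with limma among 13694 genes, of which 10 (0.073%) passed; 0 of the 34 did, and the smallest adjusted p was 0.376, for SMAD2. At an unadjusted limma p below 0.05 there were 3 (8.82%), TGFBR3 higher and SMAD2 and LTBP1 lower, beside 5.89% of all genes tested (3.16% higher and 2.73% lower). Fusion and vector values did not overlap for 5 of the 34 (14.7%), namely SMAD3 and TGFBR3, higher, and SMAD2, SMAD4 and LTBP1, lower, beside 11.7% of all genes tested (5.94% higher and 5.74% lower). The pathway's shares were thus close to those of the whole array.

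The 34 differences had a median of -0.026, beside 0.0020 over all genes tested, with 12 above 0 (35.3%, beside 50.8% of all genes tested) and 22 below. Without fusion tumor 1 the balance was the other way, with 18 above 0, 16 below and a median of 0.032. Without fusion tumor 2 the count at an unadjusted limma p below 0.05 was 5 (beside 5.02% of all genes), and without vector tumor 1 it was 6 (beside 9.19%). The count with no overlap was 9 without fusion tumor 1, 9 without fusion tumor 2 and 10 without vector tumor 1, when 21.8%, 20.3% and 25.8% of all genes had no overlap. In each of these runs 0 of the 34 passed the adjusted threshold.

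**Figure D1:**
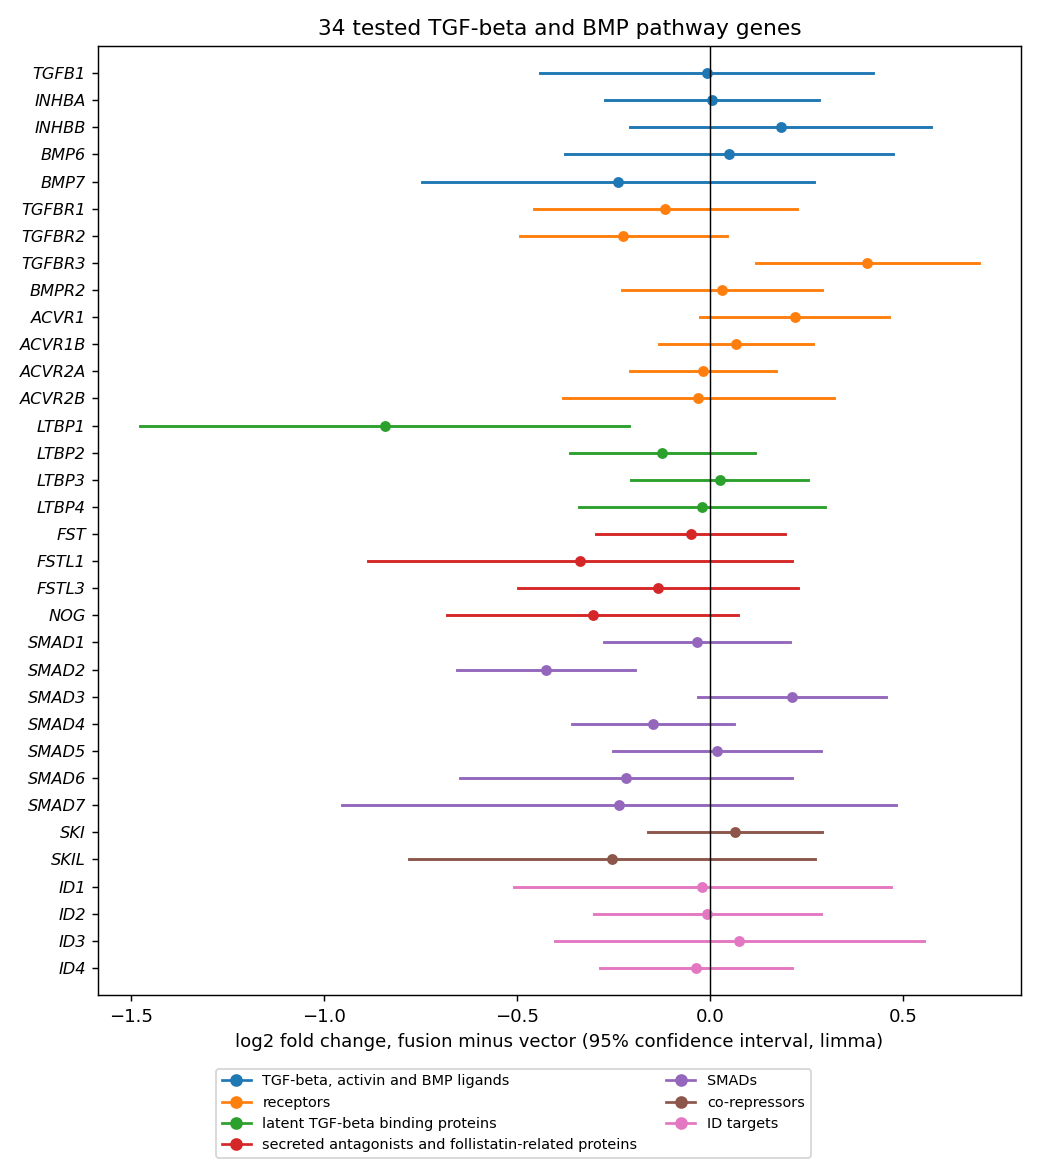
Differences of the 34 tested pathway genes, fusion minus vector, as points with limma's 95% confidence interval as lines, grouped and coloured by role. The intervals of TGFBR3, LTBP1 and SMAD2 leave out 0 before any adjustment, and those of the other 31 include it.

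Ligands gave no difference beyond their spread. TGFB1, the TGF-beta ligand found in most tissues, had 7.74, 8.46 and 8.12 in the fusion tumors (numbers 1, 2 and 3, an order kept throughout) against 8.27, 8.22 and 7.86 in the vector tumors. Its difference was -0.0087 with a 95% confidence interval of -0.44 to 0.42, so changes within those bounds in either direction remain possible. The interval is before any adjustment and is not a limit of detection. TGFB2, TGFB3, BMP2 and BMP4 were below the filter, with means of 3.83 to 4.85 in fusion and 3.84 to 4.88 in vector tumors.

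INHBA and INHBB, the subunits of activins, had differences of 0.0047 and 0.18, and BMP6 had 0.049. BMP7, a ligand of the BMP branch, had 6.51, 7.47 and 7.19 in fusion tumors against 7.30, 7.44 and 7.15 in vector tumors. Only fusion tumor 1 was low among these, and the difference of -0.24 had a 95% confidence interval of -0.75 to 0.27. Its 2 probe sets gave -0.24 and -0.25.

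LTBP1, which tethers latent TGF-beta to the matrix, had the difference of means furthest from 0 among the 34. It had 5.87, 6.69 and 6.25 in fusion tumors against 7.70, 6.91 and 6.72 in vector tumors. All 3 fusion tumors were lower than all 3 vector tumors, although fusion tumor 2 and vector tumor 3 differed by little. The means were 6.27 ± 0.41 (fusion) and 7.11 ± 0.52 (vector; SD, n = 3 each), a difference of -0.84 (SE 0.28; limma adjusted p = 0.658; exact permutation p = 0.1, the smallest that 3 against 3 allows).

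All 5 probe sets of LTBP1 were lower in fusion tumors, but by very different amounts, from -0.84 to -0.22, and only the probe set with the largest difference had groups that did not overlap. With the mean of the 5 the difference was -0.41 (limma adjusted p = 0.749), and without vector tumor 1, the highest of the 6, it was -0.55 (adjusted p = 0.488). The other latent binding proteins, LTBP2, LTBP3 and LTBP4, had differences of -0.12, 0.025 and -0.021.

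Among the receptors, TGFBR3, also called betaglycan and a co-receptor that presents TGF-beta to TGFBR2, was the gene furthest above 0. It had 7.60, 7.47 and 7.83 in fusion tumors against 7.04, 7.34 and 7.29 in vector tumors. Every fusion value was above every vector value, with means of 7.63 ± 0.18 and 7.23 ± 0.16 (SD, n = 3 each). The difference was 0.41 (SE 0.13; limma adjusted p = 0.601; exact permutation p = 0.1). Its 3 probe sets disagreed, at 0.41, 0.23 and -0.13, and their mean gave 0.17 (limma adjusted p = 0.929).

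TGFBR2, the type II receptor that binds TGF-beta, had 12.22, 12.25 and 12.14 in fusion tumors against 12.20, 12.52 and 12.57 in vector tumors. Fusion tumors lay close together, and vector tumor 1 was alone among the vector tumors in having a value like theirs. The difference was -0.22 (95% confidence interval -0.49 to 0.043; limma adjusted p = 0.925), and without vector tumor 1 it was -0.34 (limma adjusted p = 0.230). Its second probe set gave -0.20. TGFBR1, the type I partner, had a difference of -0.12 with 1 of its 3 probe sets above the filter.

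No tested receptor of the BMP and activin branches passed the threshold. BMPR2, the type II BMP receptor, had 9.93, 10.09 and 9.92 in fusion tumors against 9.77, 10.11 and 9.96 in vector tumors, which overlap throughout. ACVR1, a type I receptor for BMPs and activins, had a difference of 0.22 (95% confidence interval -0.026 to 0.46), and its 4 probe sets ran from 0.17 to 0.30. ACVR1B, ACVR2A and ACVR2B, the activin receptors, had differences of 0.067, -0.018 and -0.030.

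**Figure D2:**
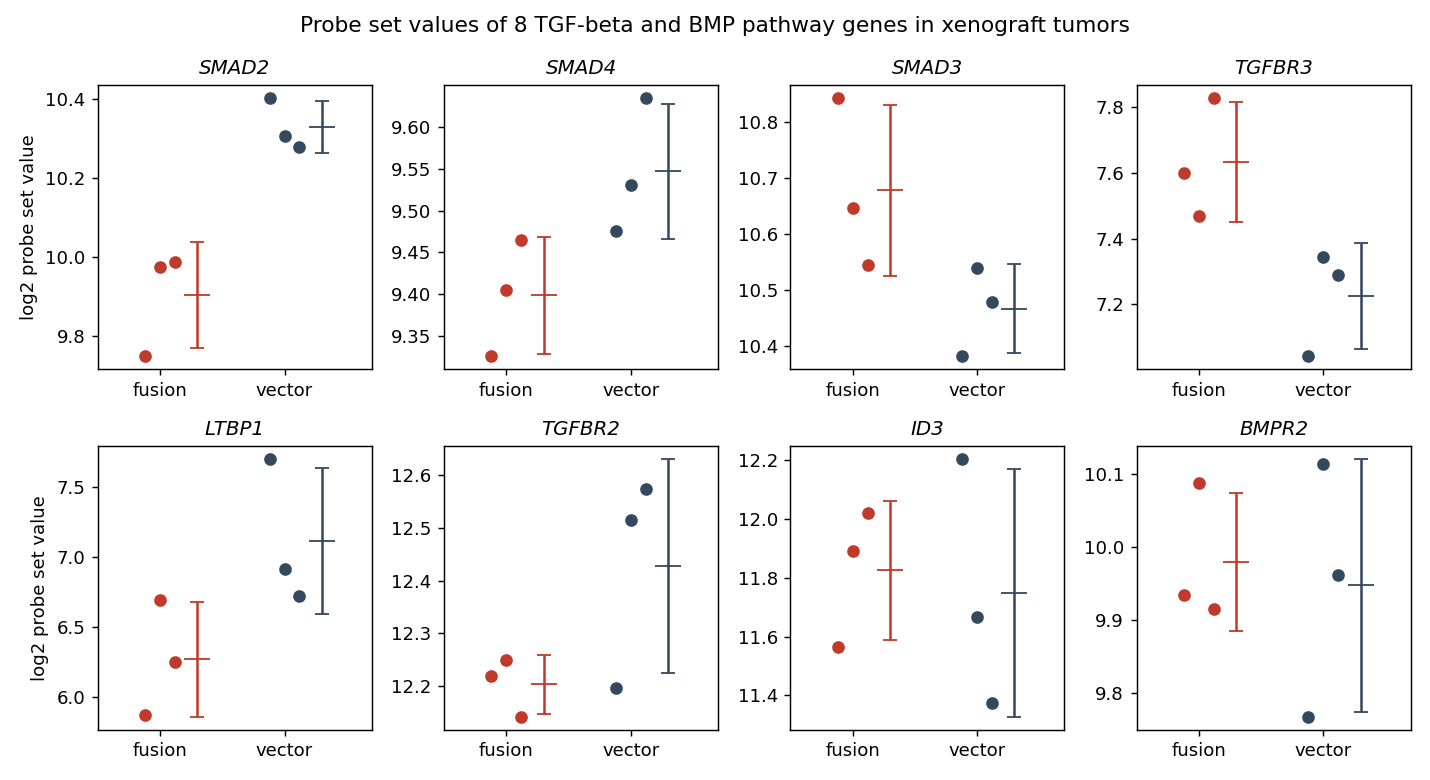
Log2 probe set values of 8 pathway genes, with a point for each of 3 fusion and 3 vector tumors and, to the right of the points, the group mean with its SD. Vertical axes differ between panels and do not start at 0; fusion and vector points do not overlap for SMAD2, SMAD4, SMAD3, TGFBR3 and LTBP1.

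Of the 5 genes with no overlap, 3 were SMADs, namely SMAD2 and SMAD4, lower, and SMAD3, higher. The share of the 34 with no overlap (14.7%) was near that of all genes tested (11.7%), so this is a description only. SMAD2 and SMAD4 both lie on chromosome 18, whose other genes are described at the end. SMAD2, a receptor-regulated SMAD, had 9.75, 9.97 and 9.99 in fusion tumors against 10.40, 10.31 and 10.28 in vector tumors. The gap between the groups was wider than the spread within either one. The means were 9.90 ± 0.13 and 10.33 ± 0.066 (SD, n = 3 each), or 0.744 of the vector level, with a difference of -0.43 (SE 0.10; limma adjusted p = 0.376; exact permutation p = 0.1).

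SMAD2 had 7 probe sets, of which 6 were lower in fusion tumors and 1 was higher, with differences from -0.43 to 0.065. In 5 of the 7 the groups did not overlap, all lower. Their mean gave -0.16 (limma adjusted p = 0.842), so the size of the SMAD2 difference depended on the probe set. Whichever tumor was left out, the difference of the probe set used stayed between -0.47 and -0.35.

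SMAD4, the common partner of both branches, had 9.33, 9.40 and 9.47 in fusion tumors against 9.48, 9.53 and 9.63 in vector tumors. The groups touched without overlapping, and the difference was -0.15 (SE 0.092; limma adjusted p = 0.956; exact permutation p = 0.1). All 7 probe sets were lower, from -0.44 to -0.14, and in 6 of them the groups did not overlap. The probe set used had nearly the smallest difference of the 7, and the mean of all gave -0.32 (limma adjusted p = 0.549). Probe sets of a gene share its transcript and array and are not replicates.

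SMAD3, the other receptor-regulated SMAD of the TGF-beta branch, lay the other way. It had 10.84, 10.65 and 10.54 in fusion tumors against 10.38, 10.54 and 10.48 in vector tumors, where fusion tumor 3 and vector tumor 2 were almost equal. The difference was 0.21 (SE 0.11; limma adjusted p = 0.916; exact permutation p = 0.1). All 5 of its probe sets were higher, from 0.12 to 0.37, 3 of them with no overlap, and their mean gave 0.24 (limma adjusted p = 0.614). Without fusion tumor 1, the highest of the 6, the difference of the probe set used was 0.13.

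SMAD1 and SMAD5, which carry BMP signals, had differences of -0.035 and 0.017 with 95% confidence intervals of -0.27 to 0.21 and -0.25 to 0.29. SMAD9, the third of them, was below the filter, with means of 4.84 ± 0.091 (fusion) and 4.95 ± 0.036 (vector; SD, n = 3 each).

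**Figure D3:**
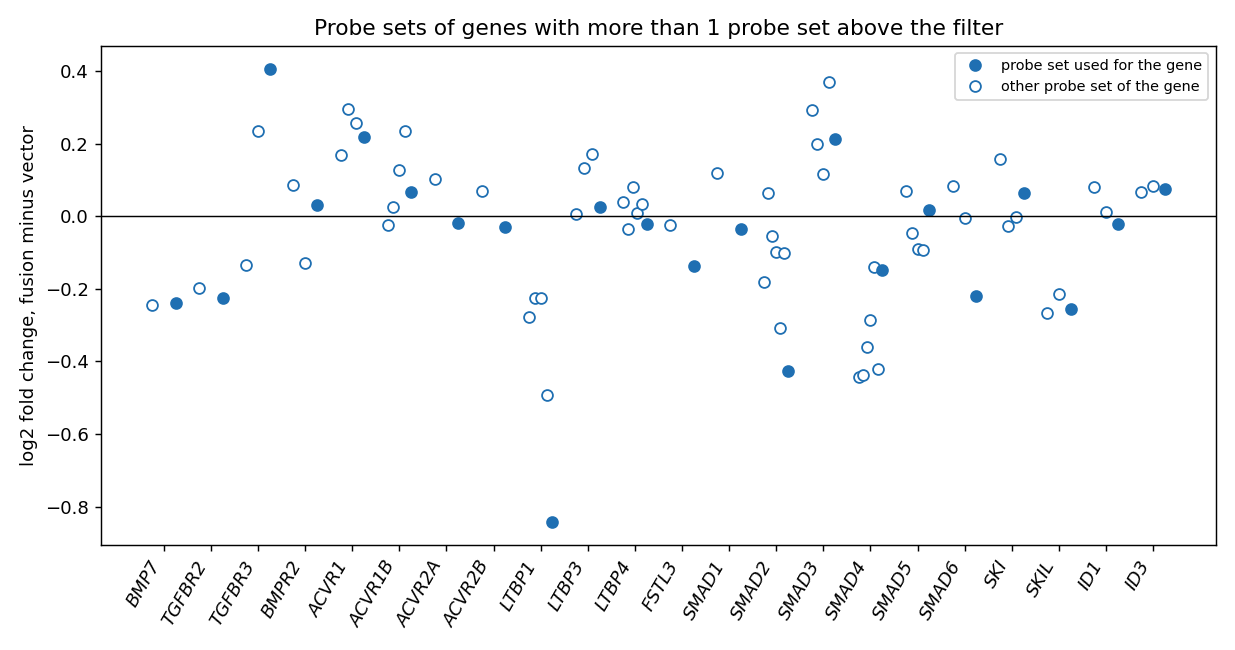
Differences, fusion minus vector, of each probe set above the filter for genes with more than 1; the filled point is the probe set used for the gene, and points of a gene run from the dimmest at the left to the brightest at the right. All points lie below 0 for SMAD4, LTBP1 and SKIL and above 0 for SMAD3 and ACVR1, while those of TGFBR3 and SMAD2 lie on both sides.

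The 4 tested genes among the listed secreted antagonists and follistatin-related proteins (NOG, FST, FSTL1 and FSTL3) had differences below 0, none past the threshold. In the list of further pathway genes the antagonists SOSTDC1, LEFTY2 and SOST had differences of 0.18, 0.025 and 0.0015. Others of that list, CHRD, CHRDL2 and BMPER, lay below 0, at -0.013, -0.054 and -0.18. NOG, or noggin, which binds BMPs, had 7.89, 7.45 and 7.26 in fusion tumors against 7.70, 8.01 and 7.80 in vector tumors. Fusion tumors 2 and 3 were below all vector tumors, while fusion tumor 1 was within their range. Its difference was -0.30 (95% confidence interval -0.68 to 0.073).

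FST, or follistatin, and FSTL3, a relative, both bind activin and had differences of -0.051 and -0.14. FSTL1, a follistatin-like glycoprotein, had one of -0.34 (95% confidence interval -0.89 to 0.21). GREM1, another BMP antagonist, was below the filter, with means of 4.25 ± 0.11 (fusion) and 4.13 ± 0.19 (vector; SD, n = 3 each).

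For SMAD7, SKIL, ID1 and ID3, all induced by the pathway, the SD within each group exceeded the difference between the group means. SMAD7, the inhibitory SMAD induced by TGF-beta, had 5.51, 6.21 and 5.86 in fusion tumors and 6.71, 6.20 and 5.37 in vector tumors. Vector tumors 1 and 3 held the highest and the lowest value of all 6. The difference of -0.24 had a 95% confidence interval of -0.95 to 0.48, and the 2 other probe sets, both dim, gave -0.23.

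SKIL, a co-repressor that TGF-beta induces, had 7.13, 7.94 and 7.27 in fusion tumors and 8.02, 7.71 and 7.38 in vector tumors. Its 3 probe sets gave differences from -0.27 to -0.21, and its 95% confidence interval was -0.78 to 0.27. SKI, the related co-repressor, varied less, with a difference of 0.064. SMAD6, the inhibitory SMAD of the BMP branch, had 5.58, 5.87 and 5.06 in fusion tumors and 5.84, 5.65 and 5.67 in vector tumors.

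ID1 and ID3, inhibitors of bHLH transcription factors and direct BMP targets, showed the same kind of spread. ID1 had 8.97, 9.54 and 9.28 in fusion tumors and 9.64, 9.37 and 8.84 in vector tumors. ID3 had 11.56, 11.89 and 12.02 in fusion tumors and 12.21, 11.67 and 11.37 in vector tumors. Both were highest in vector tumor 1 and lowest in vector tumor 3, and low in fusion tumor 1, so the groups overlapped fully.

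The differences of ID1 and ID3 were -0.021 (95% confidence interval -0.51 to 0.47) and 0.076 (-0.40 to 0.55). The probe sets used for both are of a type that can also bind other transcripts, as are those used for LTBP3, LTBP4 and ID4, among others. The other 2 of ID1 are not of that type and gave differences of 0.012 and 0.079. For ID3 a further probe set of the same type gave 0.084, and the remaining one, not of that type, gave 0.066. ID2 and ID4 had differences of -0.0072 and -0.037 and varied little.

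PMEPA1, a TGF-beta-induced inhibitor of SMAD signaling that is named here because its values were seen to vary, had the same extremes. It had 7.53, 8.97 and 7.87 in fusion tumors and 9.08, 8.40 and 6.60 in vector tumors. Its SD was 0.75 in fusion and 1.28 in vector tumors (n = 3 each), and its difference between groups was 0.094 (SE 0.60).

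Vector tumor 1 was the highest of the 6 tumors for 11 of the 34 tested genes and fusion tumor 2 for 9, while fusion tumors 1 and 3 were each lowest for 10 and vector tumor 3 for 7. Vector tumor 1 also stood apart over the whole array, on the first principal component. The same counts were not made over all genes tested, so these show no trait particular to the pathway. The mean over 9 skeletal muscle markers also differed between tumors. It was 5.27, 6.42 and 5.42 in fusion tumors and 6.51, 5.74 and 5.53 in vector tumors. These markers did not vary alike. TNNC2 ran from 5.60 in fusion tumor 1 to 9.31 in fusion tumor 2, while DES ran only from 6.19 in vector tumor 2 to 6.62 in vector tumor 1. The log2 of the summed level of the 9 markers lay between 8.80 and 10.57 for fusion tumors and between 9.16 and 10.45 for vector tumors, with MYH1, MYH2, MYH4 and TTN below the filter on their means. The part of muscle tissue in the spread of the pathway transcripts was not tested.

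**Figure D4:**
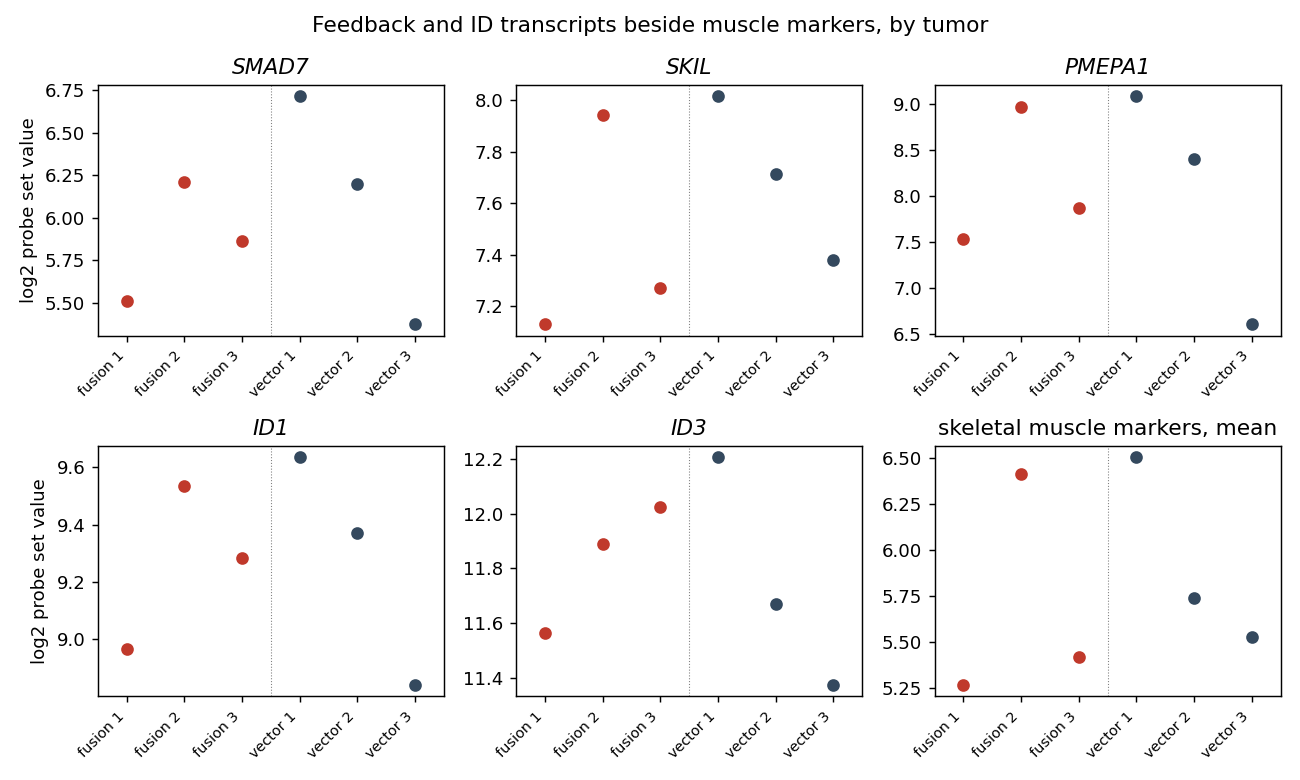
Log2 probe set values of SMAD7, SKIL, PMEPA1, ID1 and ID3 and the mean over 9 skeletal muscle markers in each tumor, with vertical axes that differ between panels and do not start at 0. Vector tumor 1 is highest in all 6 panels, and fusion tumor 1 or vector tumor 3 is lowest. Apart from ID3, these genes were shown after their values were seen, so the likeness of the panels is no result. Other induced genes differ: SMAD6 was highest in fusion tumor 2 and ID2 in fusion tumor 1, and both were lowest in fusion tumor 3.

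Because ID1, ID3, SMAD6, SMAD7 and SKIL are direct targets of SMAD proteins, the 250 bases before their starts were searched, on both strands, for letters that SMADs are known to bind. These were the palindrome GTCTAGAC, the shorter CAGAC, which reads GTCTG on the other strand, and the GC-rich GGCGCC, none of which overlapped another in these 5 windows. The sequences are those of RefSeq on GRCh38.p14, on the strand of the gene, with matches in capitals. The window of ID1 is chr20:31605039-31605288 (plus strand), that of ID3 chr1:23559502-23559751 (minus), that of SMAD6 chr15:66701986-66702235 (plus), that of SMAD7 chr18:48950966-48951215 (minus, before the most upstream of 3 listed starts) and that of SKIL chr3:170357465-170357714 (plus).
ID1: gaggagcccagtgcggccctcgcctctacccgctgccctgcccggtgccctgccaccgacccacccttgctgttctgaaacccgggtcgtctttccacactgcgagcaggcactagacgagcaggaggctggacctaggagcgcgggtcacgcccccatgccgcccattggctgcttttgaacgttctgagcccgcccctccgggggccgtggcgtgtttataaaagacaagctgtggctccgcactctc
ID3: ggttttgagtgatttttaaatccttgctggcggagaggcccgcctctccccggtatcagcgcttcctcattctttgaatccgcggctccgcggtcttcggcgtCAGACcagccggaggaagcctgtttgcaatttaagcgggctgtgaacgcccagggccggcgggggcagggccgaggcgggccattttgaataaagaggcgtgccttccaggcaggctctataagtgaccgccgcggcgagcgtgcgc
SMAD6: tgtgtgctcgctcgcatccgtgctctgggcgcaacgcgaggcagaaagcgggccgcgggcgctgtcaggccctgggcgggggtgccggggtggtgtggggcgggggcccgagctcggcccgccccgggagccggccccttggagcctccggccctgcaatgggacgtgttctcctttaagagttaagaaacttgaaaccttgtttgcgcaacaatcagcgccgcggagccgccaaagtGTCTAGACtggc
SMAD7: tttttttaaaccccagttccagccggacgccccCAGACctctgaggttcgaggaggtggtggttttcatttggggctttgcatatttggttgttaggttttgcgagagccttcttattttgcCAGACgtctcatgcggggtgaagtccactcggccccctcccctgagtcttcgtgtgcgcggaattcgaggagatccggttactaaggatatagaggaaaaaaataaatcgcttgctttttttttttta
SKIL: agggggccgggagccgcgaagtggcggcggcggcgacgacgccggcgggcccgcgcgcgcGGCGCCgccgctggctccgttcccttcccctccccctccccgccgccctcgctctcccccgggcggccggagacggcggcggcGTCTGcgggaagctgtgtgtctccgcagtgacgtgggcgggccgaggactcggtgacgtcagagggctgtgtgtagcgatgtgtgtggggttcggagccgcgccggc

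The palindrome GTCTAGAC stood in the window of SMAD6, close to its start, and in 50 of 27305 genes with a window (0.183%). CAGAC stood 2 times in that of SMAD7 and once each in those of ID3 and SKIL; 37.9% of all genes had it, and 12 of the 36 pathway genes with a window (33.3%). GGCGCC stood in the window of SKIL, in 13 of the 36 pathway genes (36.1%) and in 16.0% of all genes. The window of ID1 held none of the 3. These matches describe the letters of the windows. Any outside them, such as before the other listed starts of SMAD7, were not counted.

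**Figure D5:**
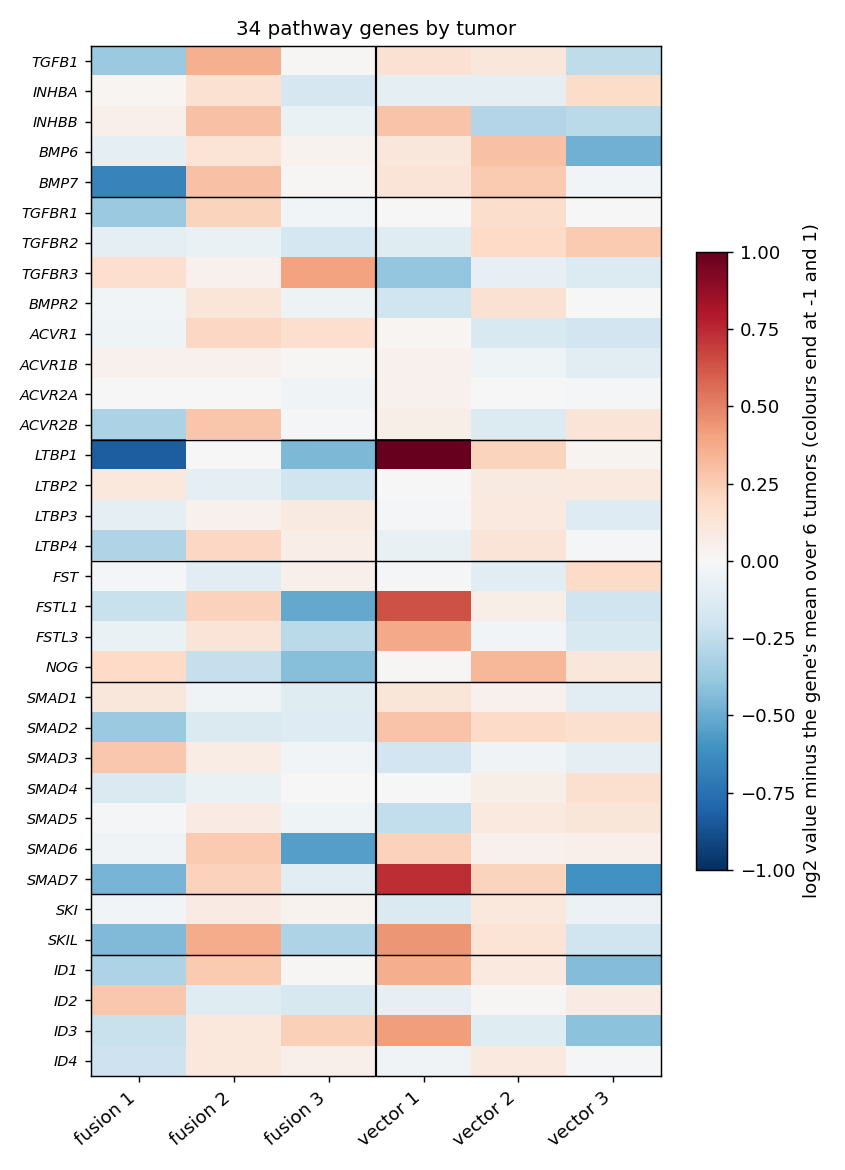
Log2 value of each of the 34 tested genes in each tumor minus that gene's mean over the 6 tumors, in red above and blue below it, with lines between roles and between fusion (left) and vector tumors (right). Colours end at -1 and 1, and the value of LTBP1 in vector tumor 1 lies beyond the scale. SMAD7, SKIL, ID1 and ID3 are blue in fusion tumor 1 and vector tumor 3 and red in vector tumor 1. ID2 is instead red in fusion tumor 1 and blue in vector tumor 1.

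Further parts of the pathway were described through a list of 50 other ligands, receptors, antagonists and modulators, of which 46 had a probe set and 32 were tested. None passed by limma in either direction; 1 was higher and 1 lower at an unadjusted p below 0.05 (6.25%, beside 5.89% of all genes tested). Groups did not overlap for 4 (12.5%, beside 11.7%), namely RGMB, SMURF2, BMP1 and GDF15, all higher. The median difference was 0.013, with 20 above 0 and 12 below. RGMB, a BMP co-receptor, had 9.86, 8.78 and 9.05 in fusion tumors against 8.59, 8.72 and 8.39 in vector tumors, with fusion tumor 1 far above the rest (difference 0.66, SE 0.25; limma adjusted p = 0.730). TWSG1, a secreted modulator of BMP binding, averaged 10.14 ± 0.18 (fusion) and 10.44 ± 0.18 (vector; SD, n = 3 each), a difference of -0.30 (limma adjusted p = 0.836).

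SMURF2, a ubiquitin ligase that targets SMADs and TGF-beta receptors, averaged 12.11 ± 0.056 (fusion) and 11.91 ± 0.080 (vector; SD, n = 3 each). Every fusion value was above every vector value, by a small margin (difference 0.20, SE 0.090; limma adjusted p = 0.856).

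Of 20 transcripts known to be induced by TGF-beta, 17 were tested, and by limma none passed in either direction; 4 were higher and 0 lower at an unadjusted p below 0.05 (23.5%, beside 5.89% of all genes tested). Groups did not overlap for 4, all higher (23.5%, beside 11.7%). The median difference was 0.094, with 12 above 0 (70.6%, beside 50.8%) and 5 below. SPHK1, a sphingosine kinase, had 8.99, 8.88 and 8.98 in fusion tumors against 8.80, 8.34 and 8.15 in vector tumors (difference 0.52, SE 0.16; limma adjusted p = 0.578). ANGPTL4, a secreted inhibitor of lipoprotein lipase, had 9.74, 9.57 and 9.28 in fusion tumors against 8.98, 8.98 and 8.67 in vector tumors (difference 0.65, SE 0.14; limma adjusted p = 0.319). Every fusion value of both was above every vector value. COL1A1, a chain of type I collagen, had 8.05, 7.88 and 7.89 in fusion tumors against 7.03, 7.81 and 7.03 in vector tumors (difference 0.65, SE 0.20; limma adjusted p = 0.593), where vector tumor 2 came close to the fusion tumors.

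COL1A1, COL1A2 and POSTN also belong to the 12 fibroblast markers, of which 10 were tested, with 4 higher and 1 lower at an unadjusted limma p below 0.05 (50%, beside 5.89% of all genes tested). The same 5 had groups that did not overlap (beside 11.7%). FAP, a fibroblast surface protease, had a difference of 0.91 (SE 0.16; limma adjusted p = 0.202), THY1 one of 0.36 and COL1A2 one of 0.24, while FBN1, the microfibril protein fibrillin, had one of -0.50 (SE 0.14). The mean over the fibroblast markers was 6.81 to 6.90 in fusion and 6.59 to 6.81 in vector tumors, and DCN and LUM were below the filter. The log2 of their summed level was 13.37 to 13.49 in fusion and 13.14 to 13.70 in vector tumors, which is mostly the level of PDGFRA (13.02 in fusion and 13.16 in vector tumors). The sum thus follows mainly this gene and does not stand for fibroblasts in general. The part of fibroblasts in the result was not tested. CCN2, a matricellular protein, had 9.52, 11.11 and 10.31 in fusion tumors and 10.91, 10.93 and 10.43 in vector tumors, which overlap.

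Of 12 transcripts known to be induced by BMP, apart from the ID genes and SMAD6, 8 were tested, and by limma none passed in either direction; 1 was higher and 1 lower at an unadjusted p below 0.05 (25%, beside 5.89% of all genes tested), and the same 2 had groups that did not overlap (25%, beside 11.7%). The median difference was -0.14, with 3 above 0 and 5 below. The homeobox gene MSX2 had 6.58, 6.77 and 6.76 in fusion tumors against 6.46, 6.35 and 6.52 in vector tumors (difference 0.26, SE 0.098; limma adjusted p = 0.733). The T-box gene TBX3 had 5.13, 5.15 and 5.01 in fusion tumors against 5.32, 5.39 and 5.42 in vector tumors (difference -0.28, SE 0.089; limma adjusted p = 0.617). These lay in opposite directions. ATOH8, a bHLH transcription factor, had 6.37, 5.99 and 6.27 in fusion tumors against 6.58, 6.16 and 6.51 in vector tumors, which overlap (difference -0.21).

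Markers of other cell types were summarised the same way. Endothelial markers averaged 5.87 to 5.89 in fusion and 5.80 to 5.90 in vector tumors. Leukocyte markers averaged 5.51 to 5.55 in fusion and 5.40 to 5.52 in vector tumors, and adipocyte markers 6.01 to 6.07 in fusion against 6.16 to 6.30 in vector tumors. PTPRC, CD14, CD163, CLDN5, TEK, FABP4 and LEP were below the filter. By limma none of the 8 endothelial, 7 leukocyte, 7 adipocyte and 5 muscle markers tested passed, while 1 leukocyte marker was higher (14.3%) and 3 adipocyte markers were lower (42.9%) at an unadjusted p below 0.05, beside 5.89% of all genes tested. Groups did not overlap for 1 endothelial, 3 leukocyte and 2 adipocyte markers (12.5%, 42.9% and 28.6%, beside 11.7%). The leukocyte marker was CD68, a lysosomal protein of macrophages, with 8.73, 8.31 and 8.50 in fusion tumors against 7.78, 7.68 and 7.69 in vector tumors (difference 0.80, SE 0.12; limma adjusted p = 0.112). CSF1R was also higher without overlap (difference 0.17), but TYROBP was lower without overlap (difference -0.13). Of the 7 leukocyte markers tested, 4 had differences above 0 and 3 below. The part of these cell types in the values of the pathway genes was not tested.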

How the data were processed

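Processed values came as a matrix of log2 probe set levels that the authors deposited, a column for each tumor. Its scale was inferred from its range; how background, normalization and summarisation were done is not given in the sources used here. Among its 49293 probe sets, 44988 match a lone gene in the platform annotation, 1832 match more, and for 2473 no gene was listed. Per gene the probe set with the highest mean was used. Genes under the 30th percentile of all probe set means (4.94) were left out, which removed 4438 of 18132. The test was limma's moderated one, two-sided (lmFit and eBayes; limma 3.58.1, R 4.3.3), adjusted by Benjamini-Hochberg over 13694 genes. Depth has no counterpart on arrays, and their number, 3 per group, limits the precision. The pathway genes and lists were chosen with earlier results of these data known. Pathway genes were given by tumor where they had an unadjusted p below 0.05, no overlap or a 2-fold difference, or were among the 5 with the highest mean level, and the 3 smallest p of each further pathway list were named; other values were added after they were seen. Levels of different probe sets are no measure of relative RNA amounts, and mean levels served only to filter, choose and order them. Alternatives covered the filter, the probe set, scaling, the variance model, the replicate number as a block and each tumor left out. Figures used Python 3.11.15 and matplotlib 3.10.9.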

Additional observations from a re-analysis of the deposited data

How the results depend on the processing

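Under all 14 alternatives tried, limma called 0 of the pathway genes tested, and TGFBR3, SMAD3 (higher), SMAD2, SMAD4, LTBP1 and TGFBR2 (lower) kept their direction. The replicate block left the median at -0.026 and the counts of pathway genes at 3 and 5, and gave a count over all genes of 8, beside 10 without it. Under the block 6.65% of all genes tested had an unadjusted limma p below 0.05, and 11.7% had no overlap. Deviations from the group means correlated by 0.097, 0.174 and 0.0507 in same-numbered tumors and by -0.141 to -0.0177 in tumors with different numbers. The labels give the numbers only as biological replicates, so they were not taken as pairs in the main test. Over all genes the count of 10 was 1 with the filter at the 50th percentile, 16 with the mean of probe sets, 6 with the most variable probe set, and 0 (without fusion tumor 1) to 37 (without vector tumor 1) when each tumor was left out. With each tumor left out, the count of pathway genes at an unadjusted p below 0.05 was 2 to 6, beside 3.93% to 9.19% of all genes tested. The count with no overlap was 5 to 10, beside 18.5% to 25.8% of all genes tested, and the median was -0.10 to 0.032. For both counts the highest share of all genes was without vector tumor 1. BMPR2 reversed to -0.0034 with the mean of probe sets, to -0.023 without fusion tumor 2 and to -0.058 without vector tumor 1, within -0.058 to 0.11 over the tumors left out. ID3 reversed to -0.023 without fusion tumor 3 and to -0.11 without vector tumor 3, within -0.11 to 0.30. Each is within its error, and the cause was not tested.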

Other observations

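SMAD2, SMAD4 and SMAD7 all lie on chromosome 18, and all 3 had differences below 0. That of SMAD7 did not keep its sign, and ran from -0.60 to 0.073 over the settings tried. The chromosome was looked at after the values of these genes were seen, as a description of the neighbourhood. In the gene order of RefSeq, 11 other tested genes lie between SMAD2 and SMAD4. Of these, 9 had differences below 0 and 2 above, with a median of -0.15. ACAA2, a mitochondrial thiolase, averaged 9.24 in fusion and 9.52 in vector tumors (difference -0.28; limma adjusted p = 0.692). MBD1, a protein that binds methylated DNA, averaged 8.61 and 8.87 (difference -0.26; limma adjusted p = 0.777). For both, fusion and vector values did not overlap. Over chromosome 18 as a whole, leaving out the pathway genes, 108 of 181 tested genes (59.7%) had differences below 0, beside 49.2% of all genes tested, and the median was -0.045. Fusion values lay below all vector values for 27 of the 181 (14.9%), beside 5.74% of all genes tested, and above them for 14, when 5.94% of all genes lay above. By limma 0 of the 181 passed at adjusted p 0.05, with 23 lower and 7 higher at an unadjusted p below 0.05, beside 2.73% lower and 3.16% higher over all genes tested. Neighbouring genes are not independent of each other, and no DNA was measured.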
